A study of Mus musculus with 74 samples.

Results

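The genes described here are 195 genes of mouse embryonic stem (ES) cells whose RNA accumulated when the cytokine LIF was withdrawn and was reduced when the transcription factor Nanog was induced at the same time. They were chosen on measured values. In ES cells with an inducible endogenous Nanog gene, a member had a mean of at least 100 normalised counts without LIF and without the inducer doxycycline (Dox), at least 4 times its mean in LIF without Dox, and with Dox at most 0.5 of its mean without it. A normalised count is an estimated read count of a gene divided by a scaling factor of the library. Of the 37620 genes listed, 10869 reached the level, 510 of these also the ratio to LIF, and 195 all the conditions. The genes carried a working name of differentiation genes blocked by Nanog. That name goes further than the rule, since with Dox only 1 of the 195, Gm7808, had a mean under that in LIF, and the genes are called the restrained genes below, a name for the rule and not for a cause.

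LIF activates Stat3 in mouse ES cells and sustains their self-renewal, and Nanog is known to let them self-renew without it. After LIF is withdrawn, ES cells pass from a naive state through a formative one, which resembles the early post-implantation epiblast and is marked by genes such as Fgf5, Pou3f1, Otx2 and Dnmt3b, before they commit to a lineage. The naive state is marked by factors such as Esrrb, Klf4 and Zfp42.

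RNA-seq of 35 libraries was used, with between 6107512 and 92244655 estimated counts and a median of 29298745. All lines derived from E14Tg2a ES cells and grew in medium with 10% fetal calf serum, with LIF at 10 ng/mL where it is named and Dox at 1 µg/mL where it is named. SunTag cells carry a Dox-dependent reverse transactivator and, under its control, an inactive Cas9 and an antibody-fused VP64 activator, which bind wherever a guide RNA leads them. They come from 2 clones, C1 and C2, and the cells without Dox carry all of these parts as well. Nanog SunTag cells have a guide for the endogenous Nanog promoter (3 libraries in LIF, 2 in LIF and Dox, 3 without LIF, 3 without LIF in Dox). Nanog/Otx2 SunTag cells (3, 4, 4 and 4 libraries in the same order) were made from them by adding a guide for Otx2, a homeodomain factor of the formative epiblast, and are 1 clone of each parent, C1ON3 and C2ON3. They are separate libraries but not an independent line. The paper states that SunTag cells were plated with or without LIF and Dox and taken for RNA at day 3. 44iN cells lack functional endogenous Nanog and express a Nanog transgene in Dox (2 libraries in LIF and Dox, 2 at 24 h after Dox was removed, 2 after long-term culture without it, all in LIF). The long-term cultures were kept under G418 selection. Wild-type Tg2a cells were grown in serum and LIF (3 libraries). The labels do not say that libraries of a group come from separate cultures, so p-values measure the spread between these libraries, which may be technical. In bulk RNA, fewer expressing cells and less RNA per cell cannot be told apart.

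The guides are shown because they set where the activator is meant to be brought in the SunTag cells. No RNA-seq library is of SunTag cells without a guide. Effects of Dox itself, or of the activator at other sites, therefore cannot be told apart from those of the guides. The capitals mark the PAM, the genomic bases next to the guide that Cas9 requires.
Nanog: cttcccactagagatcgccaGGG
Otx2: aatgtagagcgtgcatttggAGG
The Nanog guide matched chr6:122657269-122657288 (+ strand) of mm9, 219 bases upstream of the annotated start of Nanog. The Otx2 guide matched chr14:49282649-49282668 (− strand), inside an intron of Otx2 and 102 bases upstream of its nearest annotated transcript start.

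Nanog itself followed Dox in every line. In Nanog SunTag cells without LIF its mean was 5916 normalised counts without Dox and 51805 with Dox, and in Nanog/Otx2 cells 4425 and 39530. In the Nanog/Otx2 cells without LIF and Dox, Nanog was higher in C1ON3 (6867 and 6327) than in C2ON3 (1974 and 2533). The level of Nanog in Dox was thus above that in LIF alone, 24924 in Nanog cells and 19480 in Nanog/Otx2 cells. Otx2 went the other way in the lines without its guide. Its mean without LIF was 4238 without Dox and 2450 with Dox in Nanog cells, against 4074 and 7173 in Nanog/Otx2 cells. There the log2 fold change with Dox without LIF was 3.19 for Nanog (standard error 0.33, adjusted p = 1.7e-05 in edgeR's quasi-likelihood test) and 0.85 for Otx2 (standard error 0.13, adjusted p = 0.000566). Pou5f1, a pluripotency factor of both the naive and the formative state, had means between 8046 and 44319 in the 12 groups, so that its transcript was present throughout.

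In Nanog cells without LIF, the restrained genes together made up 0.822% ± 0.0512 (SD, n = 3) of all counts, and with Dox 0.321% ± 0.0389 (SD, n = 3). In LIF without Dox they made up 0.0632% ± 0.0133 (SD, n = 3), and in LIF with Dox 0.0617% ± 0.00449 (SD, n = 2). The median over the 195 genes was 310 normalised counts without LIF and 114 with Dox, against 29.2 in LIF without Dox and 29.2 in LIF with it. These values restate the rule, and no test is attached to them. With Dox the median member kept 38.6% of its level without Dox, and the range was 3.97% to 49.8%. The members nearest to the thresholds show how gradual the limits are. C130071C03Rik had a mean of 100 normalised counts and was taken, and Abcc8 had 99.4 and was not. Mfap4 was 4.01 times its level in LIF and Ikzf2 3.96 times. Marveld2 kept 49.8% of its level in Dox and Mtss1l 50.3%.

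**Figure D1:**
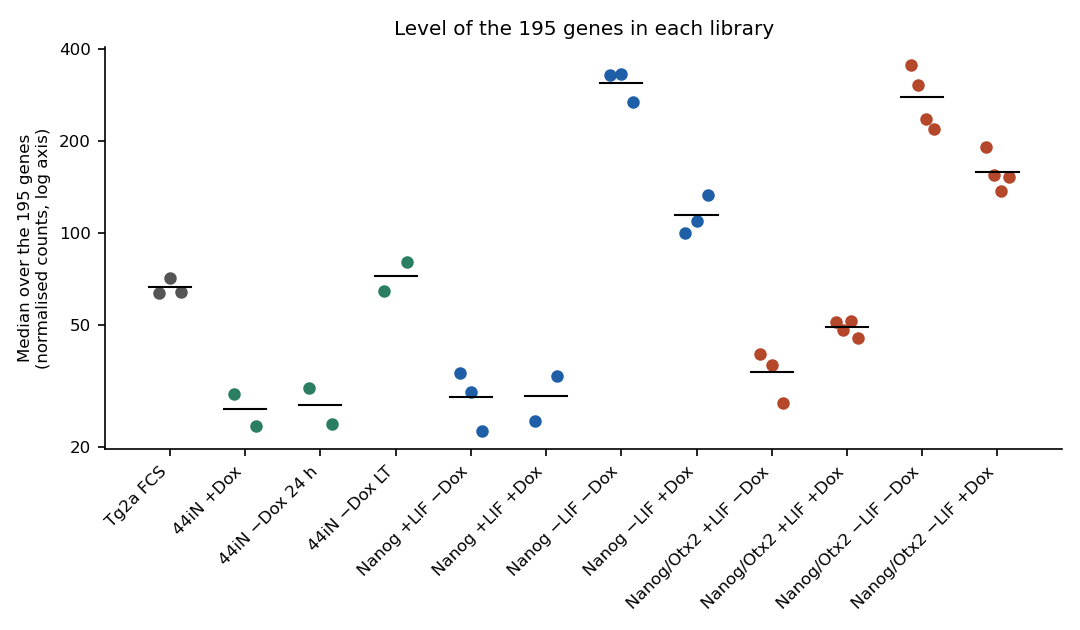
Median normalised count over the 195 restrained genes in each library (points, log axis) in the 12 groups of SunTag, 44iN and Tg2a cells. The Nanog libraries without LIF chose the genes and are a description. Nanog/Otx2 libraries without LIF lie between 218 and 354 without Dox and between 137 and 191 with Dox, and those in LIF without Dox between 27.8 and 40.2.

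The restrained genes were 185 protein-coding genes, 6 lincRNAs, 1 processed transcript and 3 pseudogenes. Their median gene span was 29.3 kb, against 20.3 kb for all genes tested, and their median summed exon length 4.77 kb against 3.42 kb. Longer transcripts give more counts at equal abundance. The members had passed a minimum mean of 100 normalised counts, and the tested genes a lower one of 10 in every library of a condition. The cause of the difference in length was not tested. Of the 195 genes, 16 (8.21%) lie on chromosome X, where 4.07% of tested genes lie. RefSeq promoter sequences (GRCm38.p6, from 250 bases before to 50 after the start) were found for 129 of the genes, with 177 promoters. The letters TAATCC, a core bound by bicoid-type homeodomains such as that of Otx2, stood on either strand in 4.52% of these promoters, against 7.06% of all promoters and 5.58% of those of tested genes. The octamer ATGCAAAT, bound by POU factors, stood in 0.565%, 1.74% and 1.39%, and TATAAA in 9.04%, 13.6% and 7.09%. The median number of CpG was 17, against 20 for tested genes and 7 for all promoters. TATAAA was thus less frequent in the promoters of the restrained genes than in all promoters and more frequent than in those of tested genes. The other letters were less frequent than in both, but these shares rest on few of the 177 promoters, 8 with TAATCC and 1 with the octamer. A match is a description of the sequence only, and these shares were not tested.

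The only member whose promoter held the octamer was Pim2, a serine/threonine kinase that promotes survival and growth. It is shown because it holds it in both orientations. The 250 bases before its start (chrX:7878056-7878305 of GRCm38.p6, + strand) have the octamer letters in capitals, 123 and 202 bases upstream.
Pim2: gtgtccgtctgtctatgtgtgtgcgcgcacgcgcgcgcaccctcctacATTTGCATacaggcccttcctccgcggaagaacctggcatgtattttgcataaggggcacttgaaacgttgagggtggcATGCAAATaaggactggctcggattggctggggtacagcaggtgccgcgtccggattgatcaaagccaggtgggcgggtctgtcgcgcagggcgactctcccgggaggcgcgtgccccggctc
Irgm1, an interferon-inducible GTPase, is shown because it was not restrained by Dox in Nanog/Otx2 cells, as described further below. Its 250 bases (chr11:48871421-48871670, − strand) hold TAATCC, in capitals, 56 bases upstream.
Irgm1: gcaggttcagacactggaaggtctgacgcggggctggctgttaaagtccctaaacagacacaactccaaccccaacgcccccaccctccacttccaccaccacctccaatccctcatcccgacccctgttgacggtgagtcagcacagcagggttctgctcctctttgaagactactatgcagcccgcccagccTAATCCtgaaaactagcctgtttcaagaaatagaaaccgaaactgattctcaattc

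Whether the genes also respond to LIF outside the libraries that chose them was asked in Nanog/Otx2 cells without Dox. The restrained genes rose there almost without exception. Of 15609 genes tested, 24.6% were called higher after LIF withdrawal, that is, at an adjusted p-value under 0.05 in edgeR (quasi-likelihood test, p-values adjusted over all genes tested by the method of Benjamini and Hochberg), and 25.2% lower. Every call and adjusted p below is of this test unless another is named. Of the 195 members, 193 were called higher and 0 lower (0 at an unadjusted p under 0.05 and 0 in DESeq2). All libraries without LIF lay above all libraries in LIF for 191 members, against 25.9% of tested genes, and 178 members differed at least 4-fold in the means, against 5.07%. Only Gm7808 did not pass the filter of 10 normalised counts in every library of a condition, and 35 members passed it only through conditions without LIF, so these could hardly be lower. The median log2 fold change of the members was 2.91, and that of all tested genes 0.01.

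Xist, the RNA that coats an inactive X chromosome, was the tested member that did not respond. It had 49.5, 60.8, 18.3 and 35.6 normalised counts without LIF in C1ON3-1, C1ON3-2, C2ON3-1 and C2ON3-2, the order of all Nanog/Otx2 values here, and 34.2, 36.8 and 74.1 in LIF in the first 3 of these, and the groups overlapped (log2 fold change −0.14, standard error 0.42, adjusted p = 0.81). Fgf5, a growth factor gene of the epiblast, was close to absent in LIF. Its counts were 17.4, 9.07 and 0 in LIF and 2238, 2068, 1944 and 1929 without it (log2 fold change 7.38, standard error 0.41, adjusted p = 3.62e-09). Pcdh1, a protocadherin, went from 99.9, 135 and 213 to 2874, 2989, 3073 and 3122 (log2 fold change 4.43, standard error 0.20, adjusted p = 7.05e-10). The library of C2ON3-1 in LIF is the shallowest of all, with 6107512 counts, and its zeros are the least precise.

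The question of whether Nanog restrains these genes when Otx2 is induced with it was addressed by Dox without LIF in Nanog/Otx2 cells. Many of them were lower there too. Of the 195 genes, 106 fell with Dox, where 6.15% of tested genes were called lower. Parp10 alone rose, where 11.2% were called higher. All libraries with Dox lay under all without it for 107 members, against 11.8% of tested genes, and 65 members were at least 2-fold lower in the means, against 1.60%. Leaving out 1 library gave between 73 and 108 calls of lower. The means were lower for 186 members and higher for 9. The libraries without LIF and Dox enter both this comparison and that of LIF withdrawal.

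The share of the level without Dox that remained with Dox had a median of 57.5% (interquartile range 43.3% to 68.3%, range 13.6% to 172%), and was larger than in Nanog cells for 182 of the 195 genes. Since the rule capped the share in Nanog cells at 50%, larger shares elsewhere are built into the choice of genes, and the difference was not tested. At most 50% remained of 65 members, more than 80% of 25 and more than 100% of 9. The median share was 53.4% in C1ON3 and 63.1% in C2ON3. Dox lowered the mean in both clones for 178 members, by at least 2-fold in both for 48, and raised it in both for 3. The rule applied to the Nanog/Otx2 libraries in place of the Nanog libraries was met by 62 genes in all, of which 52 were members (26.7% of the 195 and 83.9% of the 62). Without Dox, 172 members reached 100 normalised counts there.

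**Figure D2:**
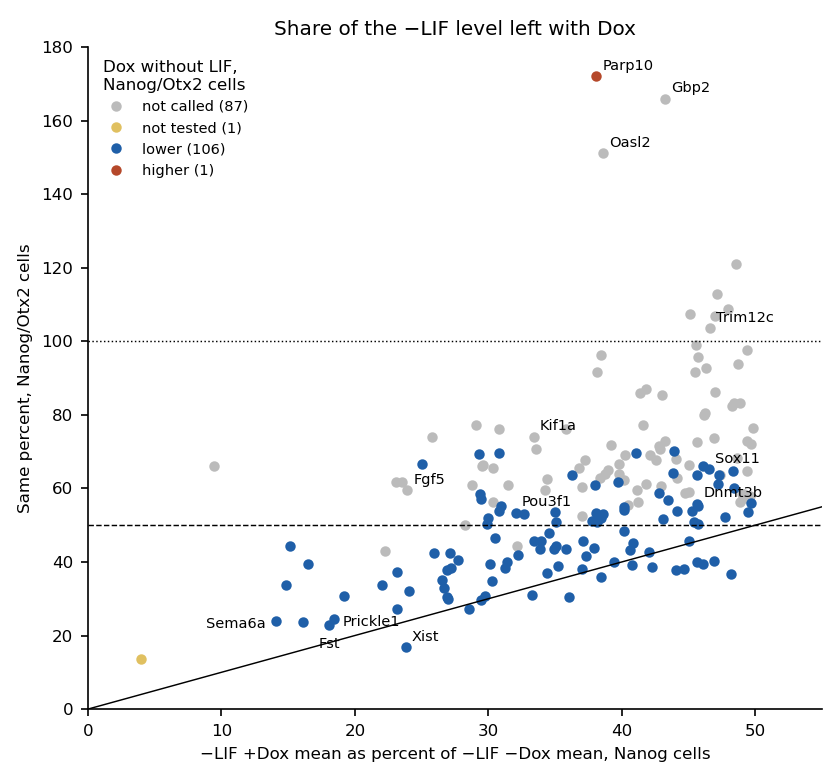
Percent of the mean level without LIF and Dox that remained with Dox for each of the 195 genes, in Nanog cells (x axis, at most 50% by the rule) and in Nanog/Otx2 cells (y axis). Colours give the call in Nanog/Otx2 cells, 106 lower, 1 higher (Parp10), 1 not tested (Gm7808) and the others not called. Most points lie above the diagonal of equal shares, with a median of 38.6% on the x axis and 57.5% on the y axis.

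Among 31 listed genes of the formative epiblast, 7 were members, and 4 of the 7 fell with Dox without LIF. Of the 30 listed genes tested, 7 fell and 3 rose. Dnmt3b, a de novo DNA methyltransferase, had the most normalised counts of all members, also per kb of exon. It had 78562, 86763, 85777 and 86432 normalised counts without Dox and 49578, 50608, 41328 and 46965 with it, and the groups did not overlap (log2 fold change −0.80, standard error 0.26, adjusted p = 0.0463), but the call was lost when any 1 of 11 libraries was left out (adjusted p up to 0.101). Pim2 had 30667, 27665, 28834 and 25348 without Dox and 16983, 13965, 11938 and 14417 with it (log2 fold change −0.94, standard error 0.24, adjusted p = 0.0137). Pou3f1, a POU factor of the epiblast and of neural progenitors, had 4332, 5462, 7066 and 7294 without Dox and 3157, 3072, 2704 and 3967 with it (log2 fold change −0.87, standard error 0.23, adjusted p = 0.0193). Each of these 3 genes kept more than 50% of its level with Dox in Nanog/Otx2 cells. For Pou3f1 the call was lost without any 1 of 4 libraries (adjusted p up to 0.0598).

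Sox3, an HMG-box factor of epiblast and neural plate, had the lowest adjusted p of the 7 formative members. It had 379, 458, 468 and 481 normalised counts without Dox and 171, 120.2, 199 and 212 with it (log2 fold change −1.30, standard error 0.22, adjusted p = 0.000994), and 39.4% remained. Fgf5 had 2238, 2068, 1944 and 1929 without Dox and 1172, 915, 1371 and 1405 with it, without overlap and just short of the call (log2 fold change −0.71, standard error 0.24, adjusted p = 0.0516), which it passed with a block for clone and replicate number (adjusted p = 0.0084). In Nanog cells 23.9% of Fgf5 had remained, and here 59.5%. Sall2, a zinc-finger factor, had 2636, 3058, 3192 and 3733 without Dox and 1799, 1699.8, 2035 and 2724 with it (log2 fold change −0.57, standard error 0.20, adjusted p = 0.0629, adjusted p = 0.00103 with the block). Car4, a carbonic anhydrase, overlapped, at 1999, 2177, 1869 and 2417 without Dox and 2369, 1960.2, 1531 and 1897 with it (log2 fold change −0.09, standard error 0.15, adjusted p = 0.736).

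**Figure D3:**
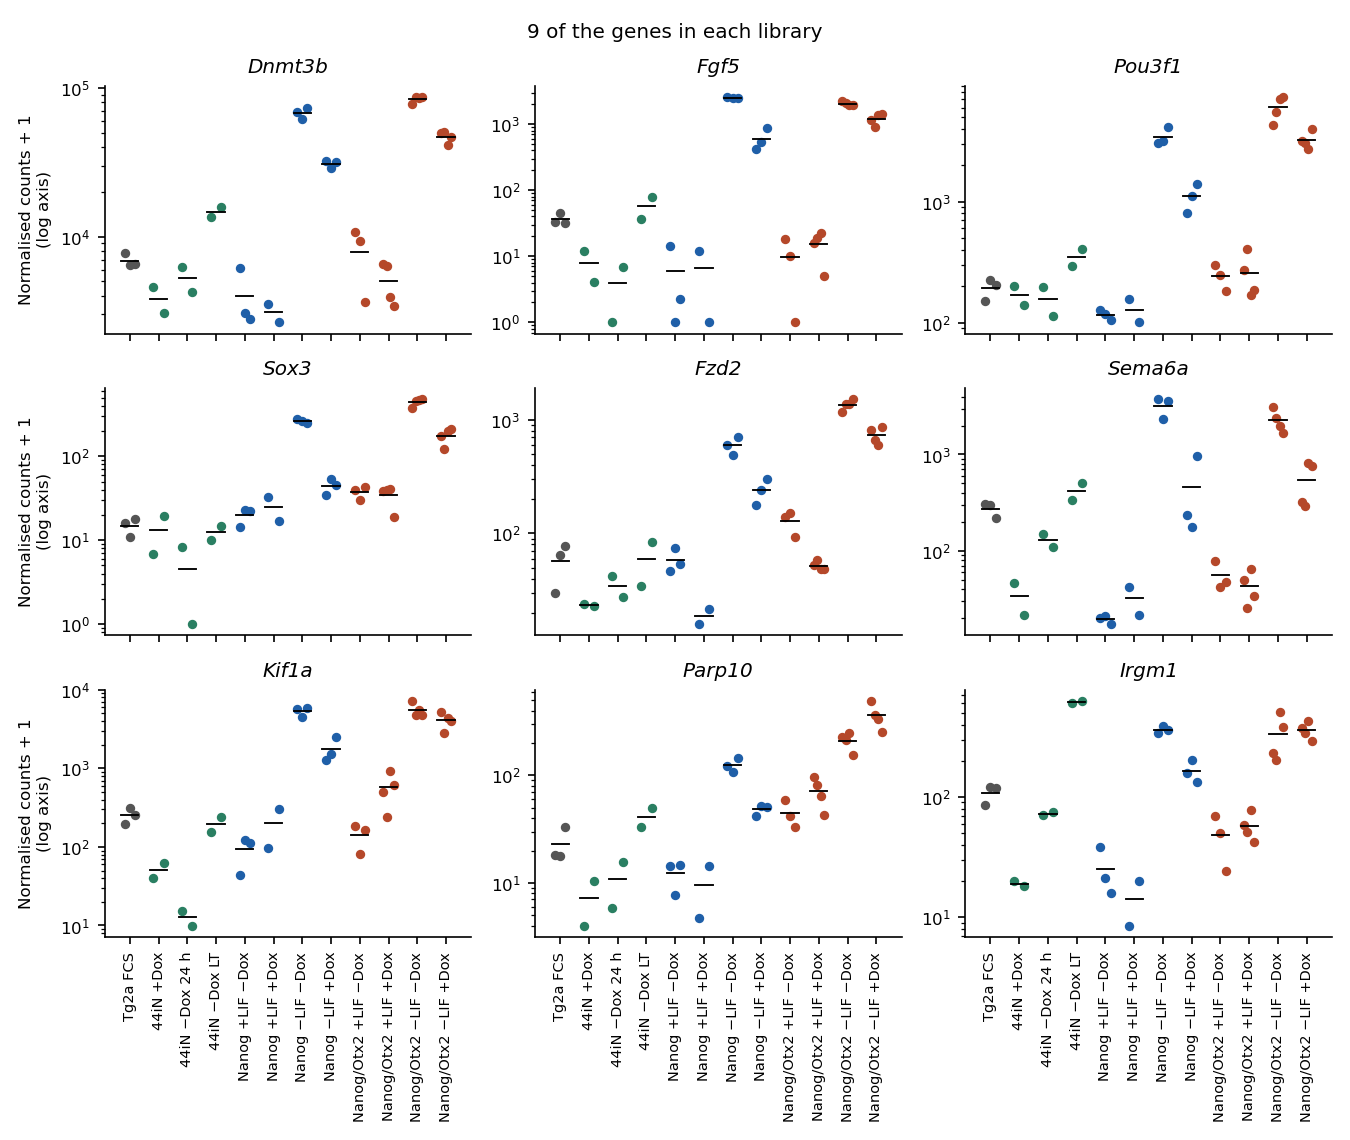
Normalised counts of Dnmt3b, Fgf5, Pou3f1, Sox3, Fzd2, Sema6a, Kif1a, Parp10 and Irgm1 in each library (points, log axis) by group, with the library as the unit. Sema6a without LIF falls from between 1662 and 3137 to between 289.5 and 813 with Dox in Nanog/Otx2 cells, while Parp10 rises from between 152 and 249 to between 252 and 493.

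Regulators of transcription among the members fell as well. Foxi3, a forkhead factor of ectoderm and placodes, had 561, 576, 570.4 and 599 normalised counts without Dox and 156, 159, 176 and 288 with it (log2 fold change −1.52, standard error 0.21, adjusted p = 0.000163). Id2, an inhibitor of basic helix-loop-helix factors, had 755, 886, 1904 and 1718 without Dox and 449, 342, 613 and 706 with it (log2 fold change −1.28, standard error 0.28, adjusted p = 0.00591). Sox11, a factor of neural progenitors, had 499, 692, 832 and 1043 without Dox and 450.0, 435, 477 and 636 with it, with overlap, and its call (log2 fold change −0.57, standard error 0.19, adjusted p = 0.0477) was lost when any 1 of 13 libraries was left out (adjusted p up to 0.16). With Sox3 these were the 4 members among 136 listed Sox, Zic, Fox, Gata and T-box factors and their partners. All 4 were called lower, while of the 91 listed genes tested 14 were called lower and 14 higher. Of 110 other homeobox genes, 3 were members, Pou3f1 and Zfhx4 among them, and 1 was called lower. With the block for clone and number 2 were. Of the 48 listed genes tested, 5 were called lower and 8 higher. Counts over all listed or tested genes are for the fit without a block, here and below.

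Fst encodes follistatin, which binds and blocks activin. It had 395, 343, 256 and 213 normalised counts without Dox and 53.1, 57.2, 72.3 and 92.1 with it (log2 fold change −2.09, standard error 0.24, adjusted p = 3.71e-05). Its levels with Dox were close to those in LIF, 57.7, 48.2 and 41.7. Fzd2, a receptor for Wnt ligands, had 1157, 1368, 1372 and 1512 without Dox and 809, 658, 600.1 and 854 with it (log2 fold change −0.85, standard error 0.13, adjusted p = 0.000595), and it was the only one of 63 listed Wnt pathway genes that met the rule. Prickle1, a planar cell polarity protein, had 397, 273, 392 and 193 without Dox and 55, 42, 123 and 86.1 with it (log2 fold change −2.003, standard error 0.31, adjusted p = 0.000538). All of these groups were separate. Dtx4, a ubiquitin ligase of the Notch pathway, fell as well (log2 fold change −0.94, standard error 0.26, adjusted p = 0.0212), though not when any 1 of 4 libraries was left out (adjusted p up to 0.0602).

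Neural progenitor genes without a factor's role were less even between clones. Nes, the intermediate filament nestin, had 3129.8, 2068, 914 and 700.0 normalised counts without Dox and 1364, 779.9, 727 and 533 with it (log2 fold change −0.97, standard error 0.39, adjusted p = 0.103, adjusted p = 0.0126 with the block for clone and number). Msi1, an RNA-binding protein, had 1514, 1404, 750.3 and 638 without Dox and 867, 615, 478 and 459 with it (log2 fold change −0.80, standard error 0.39, adjusted p = 0.179, adjusted p = 0.00157 with the block). Within C1ON3 both libraries with Dox lay below both without it for both genes, and within C2ON3 this held for Msi1 while Nes overlapped. Without the block, the difference between the clones counts as spread. Of 56 listed neural genes, 5 were members, and 3 of these were called lower, or all 5 with the block. Of the 34 listed genes tested, 8 were called lower and 8 higher without the block.

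Of 76 listed axon guidance ligands and receptors, 63 were tested, of which 6 fell with Dox and 11 rose. Among the 8 that were members, 5 fell. Sema6a, a transmembrane semaphorin, changed most. It had 3137, 2375, 1973 and 1662 normalised counts without Dox and 319, 289.5, 813 and 759.5 with it (log2 fold change −2.03, standard error 0.34, adjusted p = 0.000994), with the lower values in C1ON3. Epha1, an ephrin receptor, had 2171, 1807, 3022 and 2397 without Dox and 975, 709, 983 and 994 with it (log2 fold change −1.32, standard error 0.22, adjusted p = 0.000829). Unc5b, a netrin receptor, had 6045, 4549, 5083 and 4465 without Dox and 2829, 2023, 2994 and 3006 with it (log2 fold change −0.85, standard error 0.14, adjusted p = 0.000785). For all 3 genes the groups did not overlap, and the levels with Dox stayed above those in LIF. Efnb2, an ephrin ligand, also fell (log2 fold change −0.90, standard error 0.25, adjusted p = 0.0248), but not without any 1 of 4 libraries (adjusted p up to 0.0819). Sema4c, Slit3 and Efna5 were not called and kept 86.1%, 71.6% and 91.6% of their levels.

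Of 77 listed cadherins and protocadherins, 5 were members, of which 3 fell. Of the 32 listed genes tested, 4 fell and 6 rose. With the block for clone and number all 5 members were called lower. Pcdh1 had 2874, 2989, 3073 and 3122 normalised counts without Dox and 1669, 1538, 1498 and 1963 with it (log2 fold change −0.82, standard error 0.15, adjusted p = 0.00177). Pcdh18 had 142, 185, 115 and 97.9 without Dox and 52.2, 54.9, 27.9 and 43.4 with it (log2 fold change −1.55, standard error 0.30, adjusted p = 0.00243). Of 179 listed genes of the extracellular matrix, 9 were members and 4 of these fell. The list as a whole went the other way, since of the 144 listed genes tested 9 fell and 39 rose. Spon1, a secreted matrix protein of the floor plate, had 829, 567, 371 and 296 without Dox and 333, 181, 195 and 207 with it (log2 fold change −1.14, standard error 0.30, adjusted p = 0.0159). Its share was 15.1% in Nanog cells and 44.4% here, and its call was lost without C1ON3-1 without Dox or C1ON3-2 with Dox (adjusted p up to 0.0551). Hs6st2, which sulfates heparan chains, had 208, 206, 236 and 225 without Dox and 38.2, 59.5, 73.6 and 88.8 with it (log2 fold change −1.70, standard error 0.25, adjusted p = 0.000287), and kept 29.4% of its level in Nanog cells and 29.7% here. Has2, a hyaluronan synthase, had 341, 559, 429.7 and 542 without Dox and 102, 118, 131 and 226 with it (log2 fold change −1.65, standard error 0.27, adjusted p = 0.000779).

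Of 254 listed ion channels, 3 were members, and 2 of these fell. Of the 148 listed genes tested, 5 fell and 31 rose. The member Kcnj3, an inward rectifier potassium channel, varied little between libraries. It had 2352, 2290.4, 2362 and 2372 normalised counts without Dox and 844, 695, 951 and 990.3 with it (log2 fold change −1.39, standard error 0.17, adjusted p = 6e-05). It kept 34.4% in Nanog cells and 37.1% here. Nefm, a neurofilament subunit, had few counts and fell from 88.6, 56.8, 46.6 and 30 to 10.2, 12.8, 17.8 and 19.7 (log2 fold change −1.84, standard error 0.36, adjusted p = 0.00301).

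Several of the members with the most normalised counts have broad roles in cells. Podxl, a sialomucin of apical membranes, had 6199, 6022, 4589 and 5577 normalised counts without Dox and 3971, 3178, 2638 and 3324 with it (log2 fold change −0.74, standard error 0.13, adjusted p = 0.00124). Rragd, a GTPase that signals amino acids to mTORC1, had 3692, 4137, 4861 and 5407 without Dox and 1405, 1134, 2050.2 and 2334 with it (log2 fold change −1.35, standard error 0.23, adjusted p = 0.000994). Pphln1, periphilin, a subunit of the silencing complex HUSH, had 6058, 5417, 6508 and 5561 without Dox and 2156, 1717, 2881 and 2642 with it (log2 fold change −1.29, standard error 0.14, adjusted p = 2.58e-05). For none of the 3 did the groups overlap. Kif1a, a kinesin of axonal transport, overlapped between the groups, with 7231, 4825, 5532 and 4837 without Dox and 5296, 2826, 4431 and 4057 with it (log2 fold change −0.40, standard error 0.31, adjusted p = 0.427).

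The members that Dox did not lower in Nanog/Otx2 cells included several genes of the interferon response and of antigen presentation. This group of 8, Parp10, Gbp2, Oasl2, Irgm1, Erap1, Trim12c, H2-T22 and H2-Q6, was put together after the values were seen and is given without a test of the group. Parp10, a mono-ADP-ribosyltransferase, had 225, 214, 249 and 152 normalised counts without Dox and 493, 367, 335 and 252 with it, against a share of 38.1% in Nanog cells (log2 fold change 0.82, standard error 0.25, adjusted p = 0.0371). Its call was lost when any 1 of 7 of the 8 libraries without LIF was left out (adjusted p up to 0.12). Gbp2, a guanylate-binding protein, had 109, 67.4, 213 and 155 without Dox and 264, 196, 260.1 and 183 with it, and Irgm1 232, 203, 505 and 384 without Dox and 373, 337, 425 and 289 with it. Neither was called (adjusted p = 0.252 and 0.783), and both were higher in C2ON3 without Dox. Oasl2, a homologue of an antiviral synthetase, had 108, 173, 89.1 and 95.7 without Dox and 337, 194, 95.1 and 77.6 with it, high with Dox in C1ON3 only (adjusted p = 0.373). Of the 8 genes, 7 had a share over 100% and H2-Q6, a class I histocompatibility gene, one of 97.6%. In Nanog cells their shares were between 38.1% and 49.4%.

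Dox was also given to Nanog/Otx2 cells in LIF, where the restrained genes are low to begin with, with a median of 35.0 normalised counts without Dox and 49.0 with it. There 45 members (23.1%) rose, where 12.9% of tested genes were called higher. Another 21 (10.8%) were called lower, a share close to the 10.0% of tested genes. With a block for clone and number, 74 were called higher, but the share of all tested genes called with this block is not given here. The count of 45 rested on single libraries, since 28 remained without C1ON3-1 in LIF without Dox and 24 without C1ON3-2 in the same condition, and the count of lower calls became 13 without C1ON3-1. The comparison shares no library with that of Dox without LIF, but its libraries without Dox also enter that of LIF withdrawal.

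Kif1a had 184, 81 and 162 normalised counts in LIF and 498, 241, 924 and 618 with Dox (log2 fold change 2.08, standard error 0.41, adjusted p = 0.00247). Tubb4a, a neuronal tubulin, had 34.9, 23.2 and 23.1 without Dox and 111, 76.9, 177 and 144 with it (log2 fold change 2.21, standard error 0.39, adjusted p = 0.00144). Amot, angiomotin, a regulator of Hippo signalling, had 165, 202 and 231 without Dox and 437, 381, 621 and 570.4 with it (log2 fold change 1.39, standard error 0.19, adjusted p = 0.000227). Even so, the levels of Kif1a and Tubb4a with Dox in LIF stayed under those of every library without LIF. In the other direction, Fzd2 had 139, 150.2 and 92.6 in LIF and 51.2, 57.3, 47.7 and 47.8 with Dox (log2 fold change −1.39, standard error 0.17, adjusted p = 0.000121). Kcnj3 had 145, 128 and 125 without Dox and 41.8, 43.7, 78.6 and 84 with it (log2 fold change −1.04, standard error 0.21, adjusted p = 0.00323). These genes are among 20 members that were called lower with Dox in both media, as were 2.27% of tested genes. Xist was a further one, at 34.2, 36.8 and 74.1 without Dox and 7.31, 3.02, 1.87 and 2.54 with it in LIF (log2 fold change −3.58, standard error 0.51, adjusted p = 0.000343), and without LIF at the levels given above and 6.52, 8.17, 8.88 and 3.95 with Dox (log2 fold change −2.58, standard error 0.44, adjusted p = 0.0011).

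The effect of Dox depended on LIF for part of the genes. The difference between the Dox effects without and with LIF, tested as an interaction, was called for 70 members. All had the lower value without LIF, against 4.55% of tested genes called in this direction. The rule chose genes that were low in LIF and fell with Dox without LIF in the parent cells, so this direction is favoured. Moreover, 35 members passed the filter only through conditions without LIF and could hardly fall in LIF. Of the 70 members, 16 were called higher with Dox in LIF and lower with Dox without LIF, as were 0.288% of tested genes. They were Hip1, Trio, Zyx, Jph4, Lpcat4, Magel2, Fam131b, Irs2, Calcr, Epha8, Adamts15, Ttbk1, Shisa6, Mfsd2a, Pcnxl2 and Pde4b, named after their values were seen. With the block for clone and number they were 39, with no filter on low counts 10, and without C1ON3-1 or C1ON3-2 in LIF without Dox 9 and 5. The shares of all tested genes under these settings are not given. Magel2, an imprinted regulator of endosomal ubiquitination, had 39.6, 19.8 and 13.9 in LIF and 66.8, 63.3, 101 and 55 with Dox (log2 fold change 1.39, standard error 0.30, adjusted p = 0.00448), but 989, 915, 723 and 637 without LIF and 429.5, 393, 494 and 379 with Dox (log2 fold change −0.91, standard error 0.21, adjusted p = 0.00905). Epha8, an ephrin receptor, had 26.8, 23.2 and 9.26 without Dox and 105, 81.4, 88 and 72.3 with it in LIF, and 413, 448, 475 and 379.5 without Dox and 352, 269.7, 289 and 284 with it without it. For both genes, Dox brought the levels with and without LIF closer together. Both were under 40 normalised counts in each library in LIF without Dox.

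**Figure D4:**
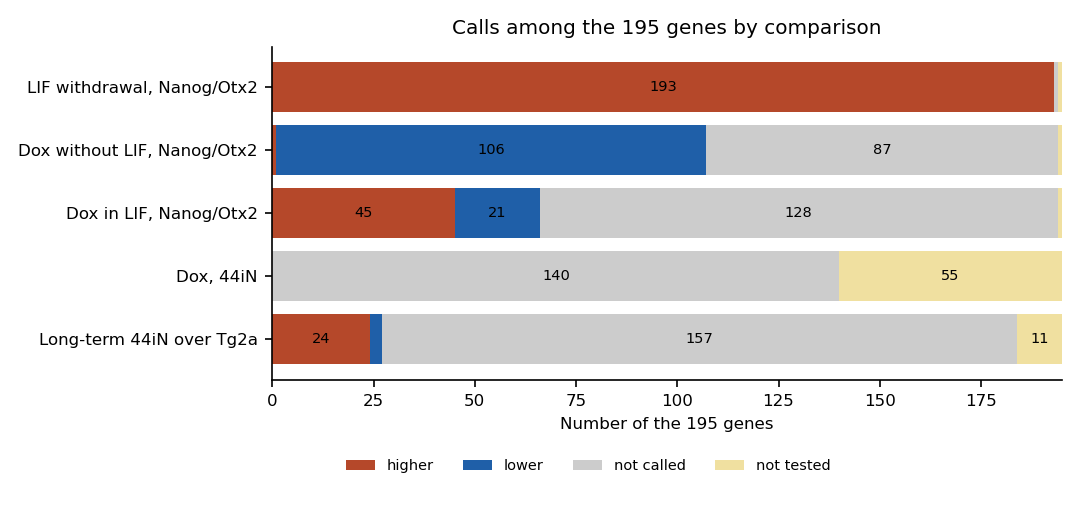
Number of the 195 genes called higher, called lower, tested and not called, and not tested in each comparison of libraries that did not choose them. LIF withdrawal gives 193 higher, Dox without LIF 106 lower and 1 higher, Dox in LIF 45 higher and 21 lower, Dox in 44iN cells 0 either way, and long-term Nanog-null over Tg2a cells 24 higher and 3 lower.

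In 44iN cells in LIF, which ask whether removal of transgenic Nanog for 24 h releases the genes, no restrained gene was called, and no other gene was either. Nanog itself went from 15880 normalised counts with Dox to 722.5 at 24 h and had an adjusted p of 0.0902, and Otx2 went from 194.5 to 1574 with an adjusted p of 0.156, so that the absence of calls says nothing about the restrained genes. Their levels are given as values, with a median of 26.5 with Dox and 27.4 at 24 h. Of the 195 genes, 140 passed the filter, 13 of them through the libraries with Dox alone and 20 through those at 24 h alone, and edgeR called 0 lower and 0 higher with Dox (0.00% of the 14376 genes tested in each direction). At an unadjusted p under 0.05, 17 members were lower and 8 higher with Dox, where 2.25% and 4.86% of tested genes were, and DESeq2 called 1 lower and 0 higher. Both libraries with Dox lay under both without it for 54 members (27.7%, against 22.6% of tested genes) and above them for 30 (15.4%, against 14.8%). With 2 libraries against 2 the calls turned on single libraries, as some members were called lower when 1 library with Dox was left out. Their number is not given, since 1 library then remains in that group.

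Among those lower at an unadjusted p under 0.05 without overlap, Cachd1, a Wnt-associated membrane protein related to calcium channel subunits, had 35.7 and 48.2 normalised counts with Dox and 158 and 201 at 24 h (log2 fold change −2.003, adjusted p = 0.372). Sema6a had 45.6 and 20.2 with Dox and 149 and 109 at 24 h (log2 fold change −1.86, adjusted p = 0.508). Car3, a carbonic anhydrase, had 93.1 and 45.1 with Dox and 422 and 263 at 24 h (log2 fold change −2.21, adjusted p = 0.374). Has2 had 52.5 and 34.2 with Dox and 137 and 169 at 24 h, and Xist 80.3 and 59.1 with Dox and 247 and 192 at 24 h. The long noncoding RNA Miat was higher with Dox, at 71.3 and 151 against 21.6 and 50.3 (log2 fold change 1.74, adjusted p = 0.68). None of these passed the adjusted threshold.

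After long-term culture without Nanog in LIF, 44iN cells were compared with wild-type Tg2a cells. Some restrained genes were higher in the Nanog-null cells than in Tg2a cells. These cells also differ in the other genetic changes of the 44iN line and in G418 selection, so absence of Nanog cannot be told apart from them. The median over the 195 differed little, at 72.5 normalised counts in the Nanog-null cells and 66.4 in Tg2a cells, against 310 in Nanog cells without LIF. Within the 44iN line it was 26.5 with Dox and 72.5 after long-term culture without Nanog, and the members made up 0.0614% ± 0.00635 (SD, n = 2) and 0.196% ± 0.0127 (SD, n = 2) of all counts. This was not tested, and absence of Nanog, time in culture and G418 selection cannot be told apart in it. There were 24 members called higher, where 3.35% of the 14937 tested genes were, and 3 called lower, Hivep2, Samd4 and Efna5, where 5.26% were. Of the 195 genes, 184 passed the filter, 11 of them through the Nanog-null libraries alone and 7 through the Tg2a libraries alone. Both Nanog-null libraries lay above all Tg2a libraries for 74 members (37.9%, against 26.7% of tested genes). The calls rested on few libraries. Without the first Nanog-null library 0 were called higher, without the second 1, and without the second Tg2a library 9, and the 3 lower calls became 0, 0 and 1. Without the third Tg2a library 7 were called lower. DESeq2 called 33 higher and 8 lower.

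The 24 genes were Dnmt3b, Pim2, Rragd, Efnb2, Vrtn, Ctgf, B230206F22Rik, Mfap3l, Trim12c, Wt1, Magel2, Erap1, Irgm1, Car3, Ccno, Cthrc1, Tcerg1l, Gm16233, E530001K10Rik, Gm5380, Ust, Aadat, Xist and Grm6. Dnmt3b had 13571 and 15853 normalised counts in Nanog-null cells and 7771, 6403 and 6503 in Tg2a cells (log2 fold change 1.02, standard error 0.16, adjusted p = 0.0115). Magel2 had 127 and 148 in Nanog-null and 29.2, 31.3 and 32.5 in Tg2a cells (log2 fold change 2.07, standard error 0.28, adjusted p = 0.00684). Irgm1 had 603 and 628 in Nanog-null and 85, 120.4 and 118 in Tg2a cells (log2 fold change 2.43, standard error 0.24, adjusted p = 0.00323). All 3 differences were larger than the spread within the groups. Xist had 1136 and 388 in Nanog-null and 158, 98.4 and 123 in Tg2a cells (log2 fold change 2.51, standard error 0.42, adjusted p = 0.0139), with unequal Nanog-null libraries. Samd4, an RNA-binding repressor of translation, was lower, at 28.3 and 43.6 against 146, 200.3 and 149 (log2 fold change −2.29, standard error 0.35, adjusted p = 0.0104). Each of these calls was lost without the first Nanog-null library, and those of Dnmt3b, Magel2, Irgm1 and Samd4 also without the second (adjusted p up to 0.182 for Xist, 0.13 for Dnmt3b, 0.0973 for Magel2, 0.0798 for Irgm1 and 0.162 for Samd4). Those of Dnmt3b and Xist were lost without the second Tg2a library too.

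**Figure D5:**
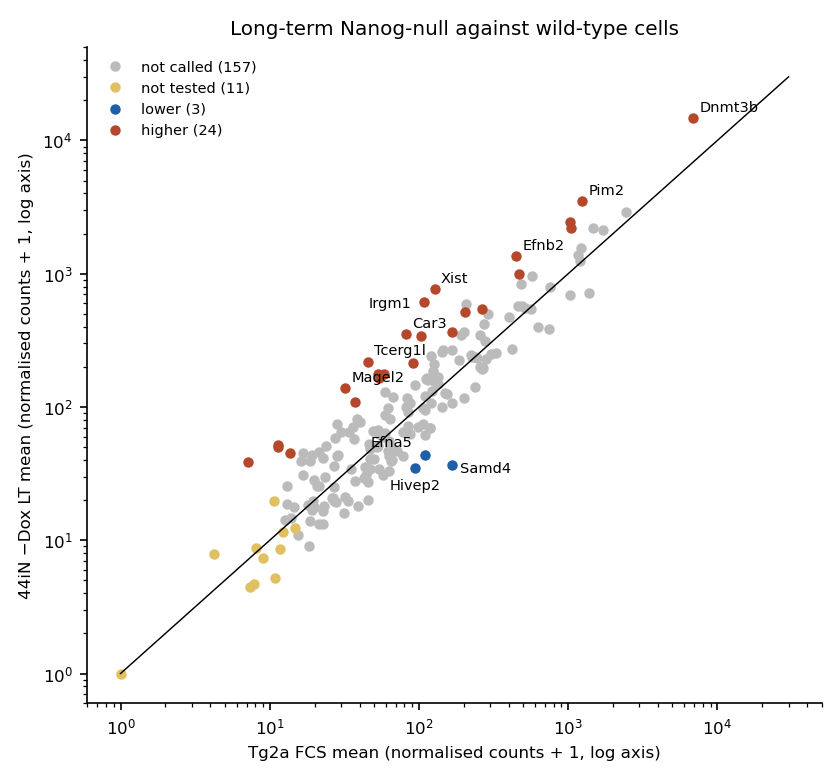
Mean normalised counts of the restrained genes in Tg2a cells (x axis, 3 libraries) and in long-term Nanog-null 44iN cells (y axis, 2 libraries), both on log axes, coloured by call. The points scatter around the line of equal levels, with 24 genes called higher and 3 called lower in the Nanog-null cells.

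The formative factors did not move together in the Nanog-null cells. Sall2 had 146 and 315 normalised counts there and 242, 292 and 194 in Tg2a cells (log2 fold change −0.16, adjusted p = 0.815), and Pou3f1 had 292 and 402 in Nanog-null and 149, 222 and 203 in Tg2a cells (log2 fold change 0.78, adjusted p = 0.114). Fgf5 had 36 and 77.6 in Nanog-null and 31.9, 44.6 and 31.3 in Tg2a cells, far under its levels without LIF. Of the 7 formative members, Dnmt3b and Pim2 were called higher.

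By their means, 113 members were highest in Nanog cells without LIF and Dox and 64 in Nanog/Otx2 cells without LIF and Dox. The rule asked for a high level in the Nanog libraries, so the first count restates it. The other 18 were highest elsewhere. Of these, 10 (Ctgf, Nefm, Car3, Gbp2, Amot, Irgm1, Ust, Igf2, Xist and Tcerg1l) were highest in long-term Nanog-null cells in LIF, and 6 (Erap1, Oasl2, H2-T22, Trim12c and Parp10 among them) in Nanog/Otx2 cells with Dox without LIF. Thbs1 and Efna5 were highest in Tg2a cells. Ctgf, a matricellular protein and a target of Hippo signalling, had 2544 and 2350.2 normalised counts in Nanog-null cells, 968, 1139 and 977 in Tg2a cells and 1707, 1576 and 1530.5 in Nanog cells without LIF. Levels in LIF also differed between lines. The mean was higher in Tg2a cells than in Nanog SunTag cells in LIF without Dox for 159 members (50.7% of the genes tested with Tg2a cells), and higher than in 44iN cells with Dox for 179 (43.4%). The rule asked for a low level in the Nanog libraries in LIF without Dox, so the count of 159 is favoured by the choice of genes. Line, Nanog level and culture cannot be told apart in these differences.

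The 2 Nanog/Otx2 clones differed in the restrained genes without LIF and Dox. Both C1ON3 libraries lay above both C2ON3 libraries for 118 members, against 32.4% of tested genes, and below them for 41, against 28.8%, and 36 overlapped. The means differed at least 2-fold without overlap for 29 members in favour of C1ON3 (4.20% of tested genes), Nes (3.22-fold) among them, and for 7 in favour of C2ON3 (2.73%), which were Car3, Ier5, Wt1, Id2, Gbp2, Irgm1 and Ccno. No test is given, as each clone is 1 line.

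Of 21 lists of genes by role, 51 members were in at least 1 and 144 in none. No member was in the lists of primitive streak and mesoderm (37 genes), extraembryonic endoderm (26 genes), trophoblast (18 genes), Hox genes and their partners (52 genes) or naive pluripotency (15 genes), and of 21 fibroblast markers Col5a2 was the only one. In Nanog/Otx2 cells without Dox, where 24.6% of tested genes were called higher and 25.2% lower, LIF withdrawal raised 23 and lowered 3 of 30 tested formative genes. It raised 16 and lowered 11 of 34 neural genes, raised 5 and lowered 8 of 21 mesodermal genes, and raised 4 and lowered 5 of 21 endodermal genes. Of 12 trophoblast genes 5 rose and 3 fell, and of 17 fibroblast genes 11 rose and 2 fell. The summed level of the mesodermal list lay between 1192 and 1689.7 normalised counts in LIF without Dox, between 1016 and 1173 without LIF and Dox, and between 1331 and 1640.3 without LIF in Dox. The summed neural list lay between 36359 and 38376, 30288 and 34230, and 33535 and 34873 in the same conditions. Both sums were thus no higher without LIF than in LIF. The neural list holds Sox2, whose mean was 11351.5 in LIF without Dox, 6360 without LIF and Dox, and 9098 without LIF in Dox. The neural sum thus includes this fall of Sox2 and does not show how the other neural genes moved. The endodermal sum went from between 25312 and 38191 in LIF to between 17852 and 26031 without it, the trophoblast sum from between 2352 and 2943 to between 2886 and 4143, and the fibroblast sum from between 16589 and 25576 to between 9079 and 10644. Listed at 0 in every library in LIF without Dox were 3 neural, 3 mesodermal, 2 endodermal, 2 trophoblast and 4 fibroblast genes, and without LIF and Dox 0, 0, 1, 2 and 1. The formative sum went from between 58402 and 71498 in LIF to between 191504 and 222537 without it, and was between 149719 and 168023 with Dox. The naive list holds Nanog, which Dox induces, and Pou5f1 and Sox2, which later states keep. Without these 3 its sum went from between 78744 and 87297 in LIF to between 3547 and 4698 without it, and was between 18421 and 25797 with Dox. The part of a changed mixture of cells in these results was not tested. Of the 12846 genes that reached 100 normalised counts in some group, 1.52% were members. Members were 7 of the 29 formative genes and 5 of the 29 neural genes at that level, with Pou3f1 and Sox3 in both lists, and Nes, Msi1 and Sox11 in the neural list alone. No test was made of these shares.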

How the data were processed

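RNA-seq of 35 libraries was analysed, with 74 samples in the series. The 3 Tg2a libraries in 2i, ChIP-seq and ATAC-seq were not analysed here. The estimated counts were made by the authors, who aligned stranded reads to mm9 with STAR, counted reads per gene with RSEM and rounded them to whole numbers. The second deposited table is a signal, these counts divided by a DESeq2 size factor per library, and its values are the normalised counts used for levels and for the rule. Totals were 6107512 to 92244655 estimated counts per library, so the precision of low genes differs between libraries, and all errors cover these libraries and counting only.

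The members, gene lists and comparisons were chosen with earlier results of these data known. A gene was tested in a model if all libraries of some condition had 10 or more normalised counts of it. Estimated counts were fitted with edgeR 4.0.16 in R 4.3.3 (quasi-likelihood test after TMM normalisation, Benjamini-Hochberg adjustment, calls at an adjusted p under 0.05), separately for the 15 Nanog/Otx2 libraries with LIF, Dox and their interaction, the 4 44iN libraries, and the 2 long-term 44iN with the 3 Tg2a libraries. The test was checked on simulated counts. In Nanog/Otx2 cells, libraries with the same clone and number deviated together over genes (21 of 21 pairs with a correlation over 0.1, from 0.131 to 0.550, median 0.276). Libraries of the same clone with different numbers did so to a smaller extent (16 of 21 pairs over 0.1, from −0.0787 to 0.352, median 0.159). Part of the correlation was thus shared across a clone. The numbers, taken from the sample titles, were treated as a pairing and used as a block in an alternative fit. For C2ON3-1 in LIF without Dox the column name gives number 2 where the title gives 1. With the column's number, 21 of 21 pairs again had a correlation over 0.1 (from 0.118), and the 3 pairs of this library had 0.118 to 0.352 against 0.131 to 0.229 with the title's, which does not settle the number. Alternatives were DESeq2 1.42.0, edgeR with the size factors of DESeq2, no filter or edgeR's own filter on low counts, blocks for clone or number, a joint model of 44iN and Tg2a libraries, and each library left out.

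Values are given for up to 4 members per list and the 12 highest members, for the 5 largest changes in each direction per comparison (mean of at least 100 in the higher group, no overlap), for members at the thresholds of the rule and for those the paper names. Not all that meet this are printed, some members are not reported here, and others are named as chosen after their values were seen. Sequences come from RefSeq (GRCm38.p6) and from the authors' list of oligonucleotides, matched to mm9. Counts, overlaps and motif searches were run in Python 3.11.15 (pandas 2.3.3).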

Additional observations from a re-analysis of the deposited data

Results flagged for a closer look

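Of 96 groups of 4 Nanog/Otx2 libraries examined for 30 named members and for the sum and median of all, 5 held a library far from the other 3, and chance alone flags about 1 in 20. Without LIF and Dox, Dnmt3b had 78562 normalised counts in C1ON3-1 and 85777 to 86763 in the others. Without LIF in Dox, Foxi3 had 288 in C2ON3-2 and 156 to 176 in the others, and Tubb4a 658 in C1ON3-1 and 348 to 391 in the others. In LIF and Dox, C2ON3-2 was low for Sox3, with 17.8 against 37.6 to 39.3, and for Spon1, with 7.12 against 12.1 to 12.5. The response to Dox went in opposite directions with and without LIF in Nanog/Otx2 cells for the 16 members named above, and for each of them this difference was called in the interaction test of edgeR. The effect of Dox without LIF minus that in LIF, on the log2 scale, was largest for Shisa6, a regulator of glutamate receptors, at −3.51, followed by the calcitonin receptor Calcr at −3.43 and the phosphodiesterase Pde4b at −3.18. It was −2.41 for Epha8, −2.38 for Fam131b, −2.30 for Magel2 and −2.03 for Zyx. For Mfsd2a it was −1.85, for Ttbk1 also −1.85, for Pcnxl2 −1.72, for Jph4 −1.39 and for Adamts15 −1.33. The smallest differences were those of Irs2 at −1.30, Lpcat4 at −1.09, Trio at −0.99 and Hip1 at −0.94. Shisa6 had at most 1.34 normalised counts in LIF without Dox.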

How the results depend on the processing

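Fits with other settings left the directions of all 155 results for named genes in place (3170 values, of which 148 no longer passed the threshold and 22 newly did). The number of members was between 174 and 229 when a Nanog library of the rule was left out. The counts of calls below are of members alone, without the share of all tested genes under the same setting. LIF withdrawal kept 190 to 193 members called higher. With Dox without LIF, DESeq2 called 119 lower, no filter gave 93, blocks for clone and for clone with number gave 133 and 143, and leaving out a library gave 73 to 108 lower and 0 to 1 higher. With Dox in LIF, both blocks gave 74 higher, and libraries left out gave 24 to 51 higher and 13 to 28 lower. The members called in opposite directions with and without LIF were 10 with no filter, 35 and 39 with the blocks, and 5 to 18 with a library left out. In 44iN cells with Dox, DESeq2 called 1 lower, no filter gave 6 lower and 1 higher, the joint model with Tg2a cells gave 3 lower, and libraries left out gave 0 to 29 lower and 0 to 7 higher. The replicate number as a block gave 23 lower and 10 higher there. Same-numbered 44iN libraries correlated at 0.492, but 2 pairs do not establish a pairing. In long-term Nanog-null over Tg2a cells, libraries left out gave 0 to 27 higher and 0 to 7 lower, and DESeq2 8 and the joint model 1 lower. Taking the number of the column name for the one library in which it differs from the title, an alternative chosen after seeing the data, the block for clone with number gave 144 lower and 2 higher with Dox without LIF, 75 higher with Dox in LIF and 40 called in opposite directions. No other call over the members moved by more than 1.5 times. The causes were not tested. Where 1 of 2 libraries is left out, the other is assumed to vary as those of the other group do. The shallowest library, with 6107512 counts, limits the levels of low members in Nanog/Otx2 cells in LIF.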
